A study of Drosophila melanogaster with 31 samples.

Results

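The genes *trh*, *vvl*, *btl*, *bnl* and *rib* build the embryonic trachea of *Drosophila*, the branched tube system that carries air to the tissues, and the chromatin around these 5 genes is described here. The members are every ATAC-seq peak summit that lies within a gene body of dm6 or within 10 kb to either side of it. These windows cover 0.14% of the genome and hold 1449 of the 876445 summits in the peak lists. They hold 333 summits for *trh*, 138 for *vvl*, 174 for *btl*, 504 for *bnl* and 300 for *rib*.

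ATAC-seq cuts open chromatin with a transposase, so a peak marks accessible DNA. The study made 31 samples in 12 conditions from embryos with different doses of *grh*, which encodes the transcription factor Grainy head. The grhM- embryos came from mothers with germline clones of the grhB37 null allele and lacked maternal Grh, with grhM+ embryos as their controls, told apart by fluorescence, both at stage 5, when the blastoderm forms its cells, and at stage 6, when gastrulation begins. The grhB37/B37 embryos lacked zygotic Grh, with grhB37/+ embryos as their controls, at stage 6, where the genotype was read from the library, and at 11-12 h after egg laying, where it was read from a fluorescent balancer chromosome. The grhM-Z- embryos lacked both supplies, with grhM+Z+ embryos as their controls, at stages 5 and 6. Early samples were single embryos, while each genotype at 11-12 h was 1 pool of embryos sequenced with another type of library. Stage and library type therefore cannot be told apart where 11-12 h is set beside stage 6.

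The tracheal cells arise from placodes in the ectoderm after both early stages. Trh, a bHLH-PAS transcription factor that works with Tgo, starts the tracheal programme, and Vvl, a POU-domain factor, acts beside it. Their targets include *btl*, the FGF receptor of tracheal cells. The FGF ligand Bnl is made by small groups of cells outside the trachea and draws the branches out. Rib, a BTB-domain nuclear protein, is needed for tubes to elongate. Grh itself acts later in the trachea, where it limits the growth of the apical membrane. Whole embryos were used, so fewer cells with an open site and a less open site in each cell cannot be told apart. No tracheal cell was isolated, and the share of such cells was not measured.

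The lists comprised 8 lists in which the replicates of a condition were called together and 11 lists of single embryos from the grhM-Z- experiment, 19 in all. Each summit carried a fold enrichment over local background and a -log10 q-value, and both grow with sequencing depth. Summits were therefore ranked within each list by q-value, with rank 1 the strongest. The median local background was 2.56 to 4.99 fragments in the embryo lists and 7.06 to 15.8 in the others. The libraries at 11-12 h were single-end, without a measured fragment size. Fragments there stand for piled-up reads, and these counts cannot be set beside those of the early lists. Early lists held 30385 to 106497 summits, but the 11-12 h lists held only 12001 in grhB37/B37 and 24857 in grhB37/+, at nearly equal background (15.8 and 15.6). Absence from a list means only that no summit passed the threshold of the authors there.

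Summits at one place were gathered into regions that reach 250 bp to either side of the strongest summit. The 5 loci hold 59 of the 37409 regions in the genome: 11 at *trh*, 7 at *vvl*, 8 at *btl*, 17 at *bnl* and 16 at *rib*. A region is named here by its gene and by its distance in kb from the nearest start site of that gene, with a minus sign for upstream. The 6 windows below, each reaching 50 bases to either side of the centre of a region and read 5′ to 3′ on the plus strand of dm6, are among those on which the results turn, and none is printed for *rib*. They are the promoter regions of *trh*, *vvl*, *btl* and *bnl*, the upstream *trh* promoter that was strong only at 11-12 h, and an intronic *bnl* region that was strong only at stage 6. Capitals mark letters of a searched motif: TACGTG for Trh with Tgo, ATGCAAAT for POU factors, AACCGGTT or AACTGGTT for Grh, CAGGTAG for the early activator Zelda (Zld) and GAGAG for GAGA factor, on either strand.
trh -0.9 kb, chr3L:378177-378277: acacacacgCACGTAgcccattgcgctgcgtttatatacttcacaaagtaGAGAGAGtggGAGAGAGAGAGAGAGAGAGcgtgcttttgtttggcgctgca
trh -0.3 kb, chr3L:392883-392983: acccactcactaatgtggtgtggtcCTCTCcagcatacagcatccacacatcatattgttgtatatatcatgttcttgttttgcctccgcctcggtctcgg
vvl -0.1 kb, chr3L:6790010-6790110: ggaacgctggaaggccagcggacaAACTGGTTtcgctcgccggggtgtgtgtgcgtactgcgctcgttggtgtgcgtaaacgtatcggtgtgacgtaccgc
btl -0.2 kb, chr3L:14076840-14076940: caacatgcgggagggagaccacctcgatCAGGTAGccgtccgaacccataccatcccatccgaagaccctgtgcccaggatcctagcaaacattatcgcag
bnl -0.1 kb, chr3R:19836892-19836992: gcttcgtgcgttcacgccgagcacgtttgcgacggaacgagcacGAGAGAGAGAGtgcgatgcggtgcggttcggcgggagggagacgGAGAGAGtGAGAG
bnl +37 kb, chr3R:19799761-19799861: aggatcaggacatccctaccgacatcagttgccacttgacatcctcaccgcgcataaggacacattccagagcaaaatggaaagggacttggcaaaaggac

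The letters differ between the windows. The *trh* promoter window holds the Trh string and a long run of GAGAG, the *vvl* window a Grh string, the *btl* window a Zld string, and the *bnl* promoter window GAGAG repeats alone. The intronic *bnl* window holds none of the strings. Over the 59 regions, the Trh string occurred in 2 (3.39%, against 2.82% of all 37409 regions), both at the downstream *trh* start site, trh -16 bp and trh -0.9 kb. The Grh strings occurred in 2 regions (3.39%, against 0.909%), vvl -0.1 kb and rib +8.2 kb, the second at the start of the neighbouring gene CG11906. GAGAG occurred in 13 (22%, against 21.8%), the Zld string in 1 (1.69%, against 2.64%) and the POU string in 1, bnl +28.2 kb (1.69%, against 0.847%). The median GC content of the 59 windows was 49.5%, against 47.5% of all regions. A match is a description of letters and not evidence of binding.

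In every early list the strongest region of *trh*, *vvl*, *btl* and *bnl* lay within 1 kb of a start site of that gene. Some distant regions were strong as well. In grhM-Z- embryos 5 and 6 at stage 6, rib -7.3 kb ranked 307 and 345, ahead of rib -0.2 kb at 362 and 3182. At stage 5 bnl +34.2 kb ranked 124 to 2400. Of the 59 regions, 19 were listed in all 17 early lists, a count without a matching share over all regions. Rank strength, used below, is the negative log2 of the rank divided by 15000, so a region at rank 15000 or weaker has 0 and a difference of 1 is a 2-fold difference in rank. The annotation gives start sites at 377316 and 392633 for *trh* (minus strand, 3L), at 6790158 for *vvl* (3L), at 14075772 and 14077065 for *btl* (3L), at 19836817 for *bnl* (minus strand, 3R), and at 19270078 and 19275732 for *rib* (2R). The upstream start sites of *btl* and *rib* had no region within 1 kb, so the strong region of each lay at the downstream start site, inside an intron of the longer transcript. The plot of rank strength along the loci shows these peaks beside the weaker ones.

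**Figure D1:**
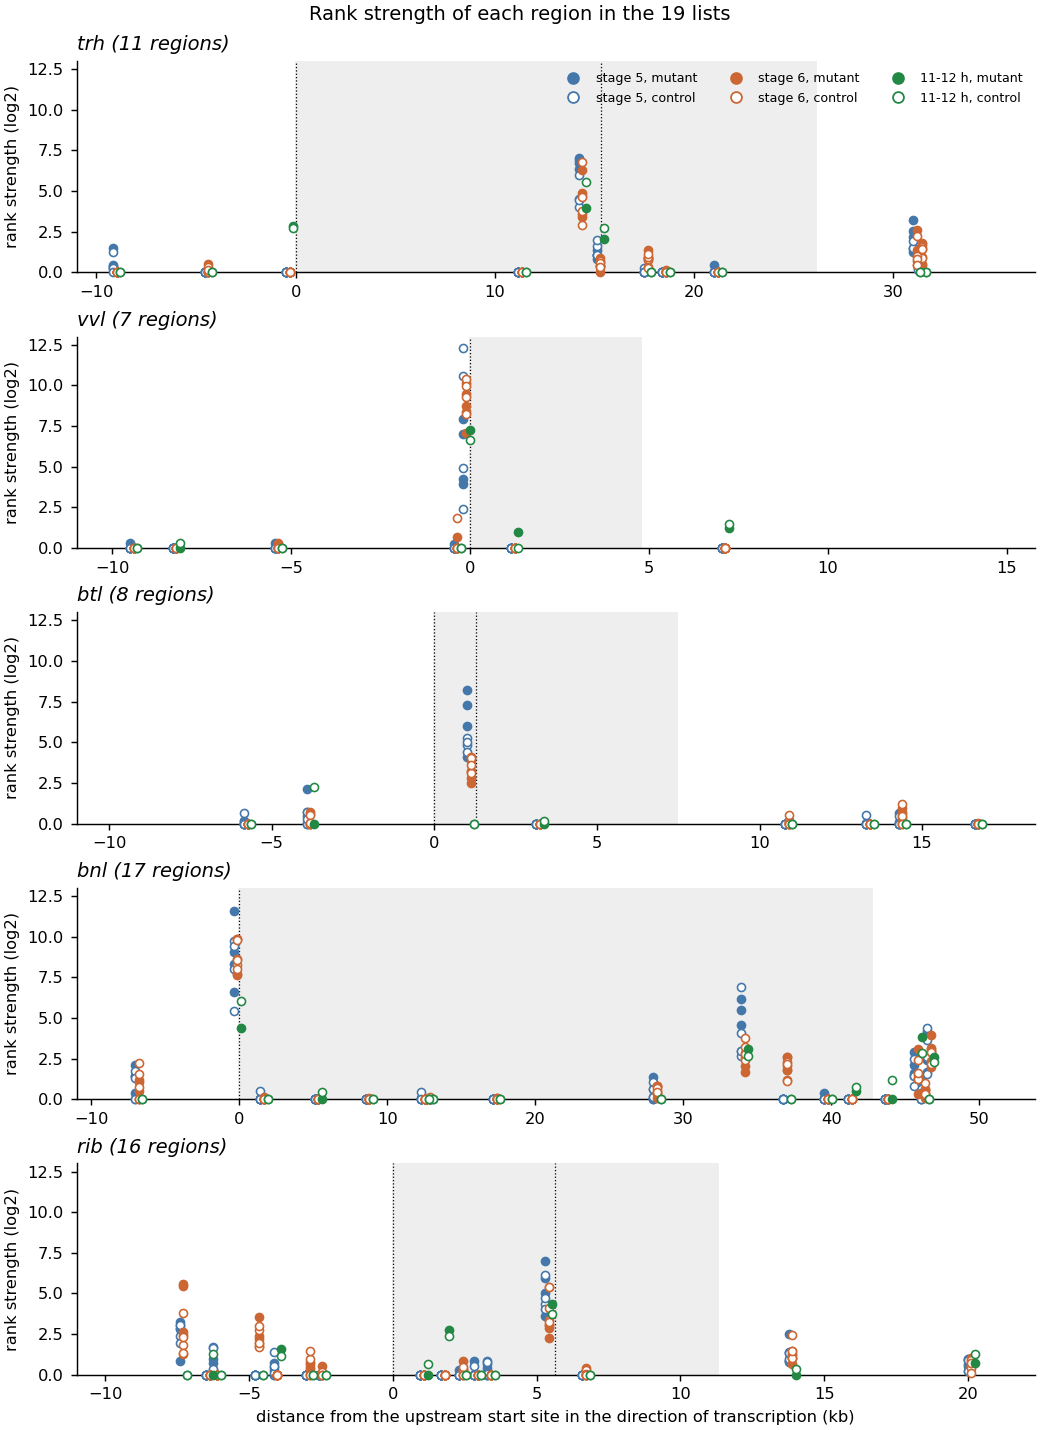
Rank strength (log2 scale, 0 where a region is not among the strongest 15000) of every region in the 19 lists, against the distance in kb from the upstream start site in the direction of transcription. Grey marks the gene body, dotted lines the annotated start sites, filled points mutant lists and open points control lists; the tallest columns stand at or just upstream of start sites, with further columns at the tRNA genes near and within bnl, 34.2 to 46.7 kb from its start.

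The *bnl* promoter was strong in every list. Its region, bnl -0.1 kb, lies 125 bp upstream of the start site. At stage 5 it ranked 28 in grhM- and 59 in grhM+, and 5, 158 and 47 in grhM-Z- embryos, against 18, 352 and 22 in grhM+Z+ embryos. At stage 6 it ranked 16 in grhM- and 49 in grhM+, 16 in grhB37/B37 and 17 in grhB37/+, and 74, 38 and 73 in grhM-Z- embryos, against 40 and 59 in grhM+Z+ embryos. Mutant and control ranks overlapped at both stages. At 11-12 h it ranked 736 in grhB37/B37, with 55 fragments over a background of 12.8, and 227 in grhB37/+, with 92 fragments over 13.3.

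The *vvl* promoter region, vvl -0.1 kb, lies 98 bp upstream of the start site and was the most variable at stage 5. It ranked 61 in grhM- and 2806 in grhM+, and 117, 783 and 999 in grhM-Z- embryos, against 3, 485 and 10 in grhM+Z+ embryos. At stage 6 the ranks drew together: 13 in grhM- and 11 in grhM+, 21 in grhB37/B37 and 15 in grhB37/+, and 35, 45 and 110 in grhM-Z- embryos, against 50 and 24 in grhM+Z+ embryos. At 11-12 h it was the strongest region of the 5 genes in both lists, at rank 99 in grhB37/B37 and 149 in grhB37/+, with folds of 5.85 and 6.56. Its mean rank strength was 8.35 ± 0.81 over the stage 6 embryos (SD, n = 5) and 7.16 ± 3.51 over the stage 5 embryos (SD, n = 6). The stage difference of 1.45 (SE 1.3) did not pass the test described below (limma adjusted p = 0.447). The neighbouring region vvl -0.4 kb, 361 bp upstream, was listed in 7 of the 19 lists, with its strongest rank, 4105, in 1 grhM+Z+ embryo at stage 6.

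At *trh*, the strongest region in every list was trh -0.9 kb, 911 bp upstream of the downstream start site and within an intron of the longer transcript. At stage 5 it ranked 115 in grhM- and 235 in grhM+, and 180, 122 and 138 in grhM-Z- embryos, against 654, 938 and 674 in grhM+Z+ embryos. At stage 6 it ranked 515 in grhM- and 601 in grhM+, 1259 in grhB37/B37 and 1093 in grhB37/+, and 589, 195 and 1425 in grhM-Z- embryos, against 1972 and 133 in grhM+Z+ embryos. Both genotypes overlapped at stage 6, while the embryos of stage 5 did not. At 11-12 h it ranked 941 in grhB37/B37 (62 fragments over a background of 17.5) and 318 in grhB37/+ (103 fragments over 18.7). Its peak was 536 to 765 bp wide over all lists.

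The *rib* start-site region, rib -0.2 kb, lies 227 bp upstream of the downstream start site. At stage 5 it ranked 467 in grhM- and 730 in grhM+, and 242, 118 and 1205 in grhM-Z- embryos, against 895, 575 and 216 in grhM+Z+ embryos. At stage 6 it ranked 2010 in grhM- and 1478 in grhM+, 1777 in grhB37/B37 and 879 in grhB37/+, and 1820, 362 and 3182 in grhM-Z- embryos, against 350 and 1572 in grhM+Z+ embryos. Genotypes and stages overlapped. At 11-12 h it ranked 741 in grhB37/B37 and 1118 in grhB37/+. *rib* lies on 2R, on the same chromosome as *grh* and the grhB37 allele, so genotype lists at this locus also differ in the chromosome that was selected.

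**Figure D2:**
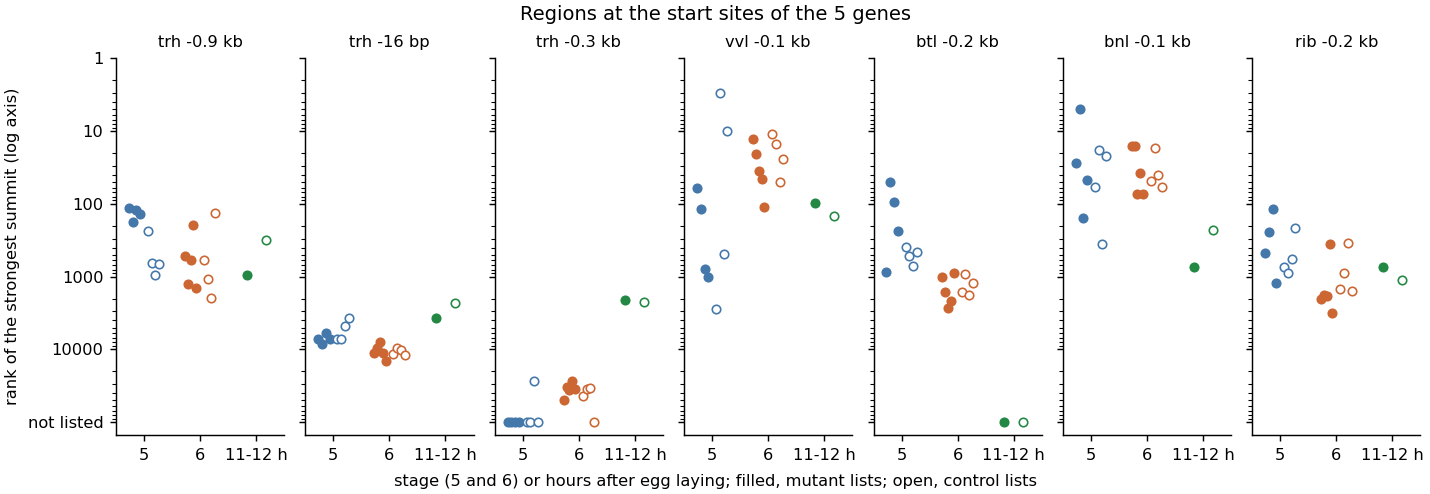
Rank of the strongest summit (log axis, rank 1 at the top) for 7 regions at start sites, by stage or hours after egg laying; filled points are mutant lists and open points control lists. The btl region is not listed at 11-12 h in either genotype, whereas trh -0.3 kb ranks 2111 and 2245 there after being weak or not listed early.

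Stage 6 was compared with stage 5 over the 11 embryos listed apart, with genotype in the same model, for regions within the strongest 15000 of at least 3 embryos. Of the 59 regions 30 could be tested. Of these 3 were higher at stage 6 and 2 were lower (limma, adjusted p under 0.05 over all 16834 regions tested in the genome), where 10.9% of all tested regions were higher and 8.1% were lower. The 5 calls were spread over *trh*, *btl*, *bnl* and *rib*, and *vvl* had none. With ranks counted to 30000 in place of 15000, 10 of the 61 regions then tested were higher and 7 lower, where 11.8% of all 34260 regions tested were higher and 8.51% lower. The median stage difference was -0.19 over the 30 regions and -0.02 over all. The filter matters here: 5 of the 30 regions passed it through stage 6 embryos alone and 5 through stage 5 embryos alone, so those had to differ in their means, and the 3 higher regions are among them. For such regions the embryo values are given as a description, with no test. The exact permutation test of stage within genotype has 200 arrangements, and its smallest possible p is 0.005.

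Of the 3 higher regions the one with the largest difference was at *rib*. The region rib -4.7 kb is intergenic, centred 4657 bp upstream of the upstream start site at position 19265421 of 2R. It ranked 3245, 4370 and 2922 in grhM-Z- and 3843 and 1850 in grhM+Z+ embryos at stage 6. At stage 5 it was not listed in any of the 3 grhM-Z- embryos and ranked 30448, 20631 and 18235 in grhM+Z+ embryos. All 5 stage 6 embryos were stronger than all 6 stage 5 embryos. Rank strength averaged 2.27 ± 0.48 at stage 6 (SD, n = 5) and 0 at stage 5 (n = 6), a fitted difference of 2.28. Ranked by fold it was 0.97. In the maternal experiment, whose samples the fit did not use, it ranked 1261 at stage 6 and 18784 at stage 5 in grhM-, and 2257 at stage 6 in grhM+ with no summit listed at stage 5. In the zygotic experiment it ranked 3923 in grhB37/B37 and 4556 in grhB37/+ at stage 6. It was listed in neither genotype at 11-12 h.

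The next region lies deep inside *bnl*. bnl +37 kb is intronic, 37006 bp downstream of the start site and 2879 bp from the nearest other start, that of a tRNA gene. It ranked 4267, 4388 and 3685 in grhM-Z- and 6615 and 7057 in grhM+Z+ embryos at stage 6, and was listed in none of the 6 stage 5 embryos. The fitted difference was 1.54, and it was 0.76 ranked by fold, 0.96 with a limit of 10000 summits and 2.54 with a limit of 30000. The maternal lists gave rank 2512 in grhM- and 3123 in grhM+ at stage 6. At stage 5 it ranked 32845 in grhM-, with 28 fragments over a background of 11.4, and was not listed in grhM+. With 176 fragments over 30.4 in grhM- at stage 6, its peak was 803 bp wide, against 142 bp in grhM- at stage 5. It too was absent from both 11-12 h lists.

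The third region, trh +2.4 kb, is intronic and lies 2359 bp downstream of the downstream start site. It ranked 8164, 8880 and 5712 in grhM-Z- and 12473 and 6863 in grhM+Z+ embryos at stage 6. At stage 5 it ranked 38206 in 1 grhM-Z- embryo and 30877 in 1 grhM+Z+ embryo and was not listed in the other 4. The fitted difference was 0.87, and it was 0.36 with a limit of 10000 summits and 1.87 with a limit of 30000.

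The larger of the 2 negative differences was at the *btl* promoter. btl -0.2 kb lies 175 bp upstream of the downstream start site of the FGF receptor gene. It ranked 2664, 2175 and 887 in grhM-Z- and 1776 and 1234 in grhM+Z+ embryos at stage 6, against 51, 96 and 234 in grhM-Z- and 515, 720 and 459 in grhM+Z+ embryos at stage 5. The weakest stage 5 embryo was thus stronger than the strongest stage 6 embryo. Rank strength averaged 3.21 ± 0.64 at stage 6 (SD, n = 5) and 5.96 ± 1.51 at stage 5 (SD, n = 6), a fitted difference of -2.88 (SE 0.58, limma adjusted p = 0.00759, exact two-sided permutation p = 0.005). The maternal lists differed less in grhM-, with rank 1024 at stage 6 and 868 at stage 5, than in grhM+, with 1644 at stage 6 and 392 at stage 5, and the difference between these 2 genotypes was not tested. At stage 6 the region ranked 1622 in grhB37/B37, with 353 fragments over a background of 35.6, and 912 in grhB37/+, with 396 fragments over 36. At 11-12 h no summit was listed there in either genotype.

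The downstream *trh* start site itself, trh -16 bp, was the other region called lower. It ranked 7977, 11323 and 14537 in grhM-Z- and 10047 and 11794 in grhM+Z+ embryos at stage 6, against 8505, 5867 and 7265 in grhM-Z- and 7095, 4800 and 3691 in grhM+Z+ embryos at stage 5. The stages overlapped by 1 embryo each. The difference was -0.84 (SE 0.23, limma adjusted p = 0.029, exact permutation p = 0.02). This call rested on single embryos and on the ranking: leaving out 1 of 5 of the 11 embryos ended it (adjusted p up to 0.077; 6 and 11 of grhM-Z- and 1, 2 and 8 of grhM+Z+, by their number in the lists), and ranking by fold gave -0.15 (adjusted p = 0.468). At 11-12 h it ranked 3669 in grhB37/B37 and 2301 in grhB37/+.

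**Figure D3:**
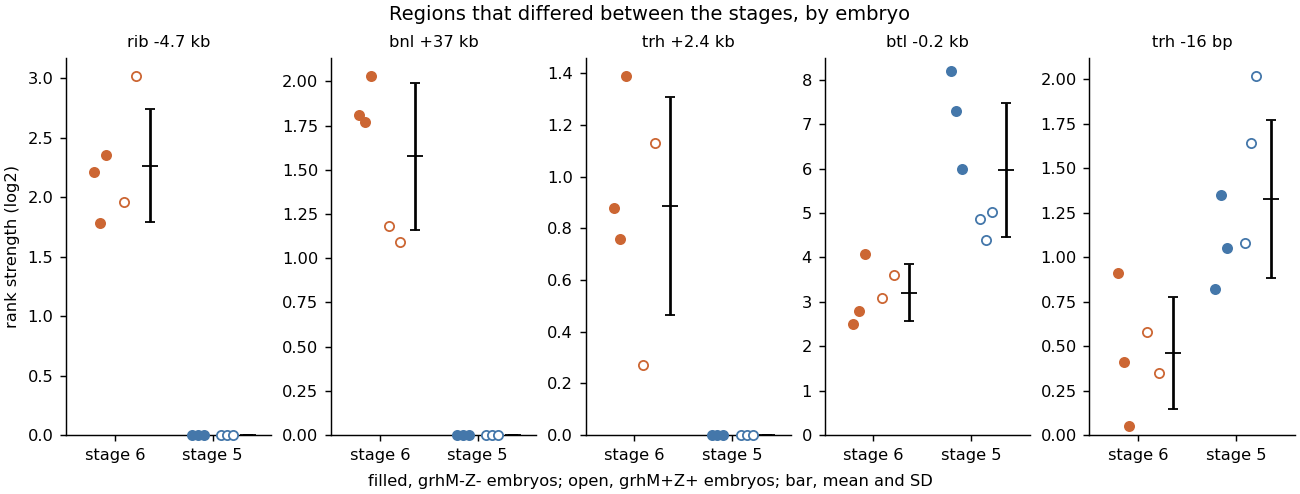
Rank strength (log2 scale) of the 5 regions called between the stages in each embryo, stage 6 left of stage 5, with grhM-Z- embryos filled and grhM+Z+ embryos open; bars are the mean and SD over the 5 stage 6 or 6 stage 5 embryos. In the first 3 panels every stage 5 embryo is at 0; at btl -0.2 kb the stages do not overlap, and at trh -16 bp they overlap.

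Other regions did not pass the threshold. In rib -6.1 kb and rib -2.9 kb the filter again fixed the direction. rib -6.1 kb ranked 22010 or weaker, or was not listed, in every stage 6 embryo, against 7725, 4530 and 13136 in grhM-Z- and 14630, 11915 and 4717 in grhM+Z+ embryos at stage 5, with a fitted difference of -0.83. rib -2.9 kb, 2897 bp upstream of the same start site, had ranks of 5419 to 19080 at stage 6 and 1 stage 5 embryo at 31776, with a fitted difference of 0.63. At bnl +34.2 kb, which is 28 bp from the start of a tRNA gene inside the *bnl* intron, the difference was -1.92 (SE 0.78, limma adjusted p = 0.112). In all, 9 of the 30 tested regions lie within 1 kb of a start site of another gene, such as Cdc5, CG1233 or a tRNA gene, and 0 of these were among the 5 calls.

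The same fit compared genotypes, asking whether loss of maternal and zygotic Grh moved these regions. None of the 30 regions differed between grhM-Z- and grhM+Z+ embryos (limma, 0 at adjusted p under 0.05), as in the whole genome, where 0 of 16834 did (0%). At an unadjusted p under 0.05 there were 0 of 30, against 1013 of 16834 (6.02%), and the smallest adjusted p of the 30 was 0.833. A fit on the 4 group means called 0 of the 30 and 7 of all. The median absolute difference was 0.19 over the 30 regions and 0.20 over all. The largest was -2.64 (SE 1.3, limma adjusted p = 0.847) at the *vvl* promoter, so the data leave room for large differences there. At btl -0.2 kb it was 1.24 (SE 0.58, limma adjusted p = 0.833) and at trh -0.9 kb 1.27 (SE 0.78, limma adjusted p = 0.854). In both the 3 grhM-Z- embryos of stage 5 ranked above the 3 grhM+Z+ embryos, but genotypes overlapped at stage 6. In the maternal lists of stage 5 the order at btl -0.2 kb was the other way, with rank 868 in grhM- and 392 in grhM+. At trh -0.9 kb it was the same way, with rank 115 in grhM- and 235 in grhM+. A change of the stage effect with genotype was called at 0 of all regions tested, and 3 of the 30 had an unadjusted p under 0.05 for it, against 891 of 16834 (5.29%). The plot of fitted differences sets both effects side by side.

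**Figure D4:**
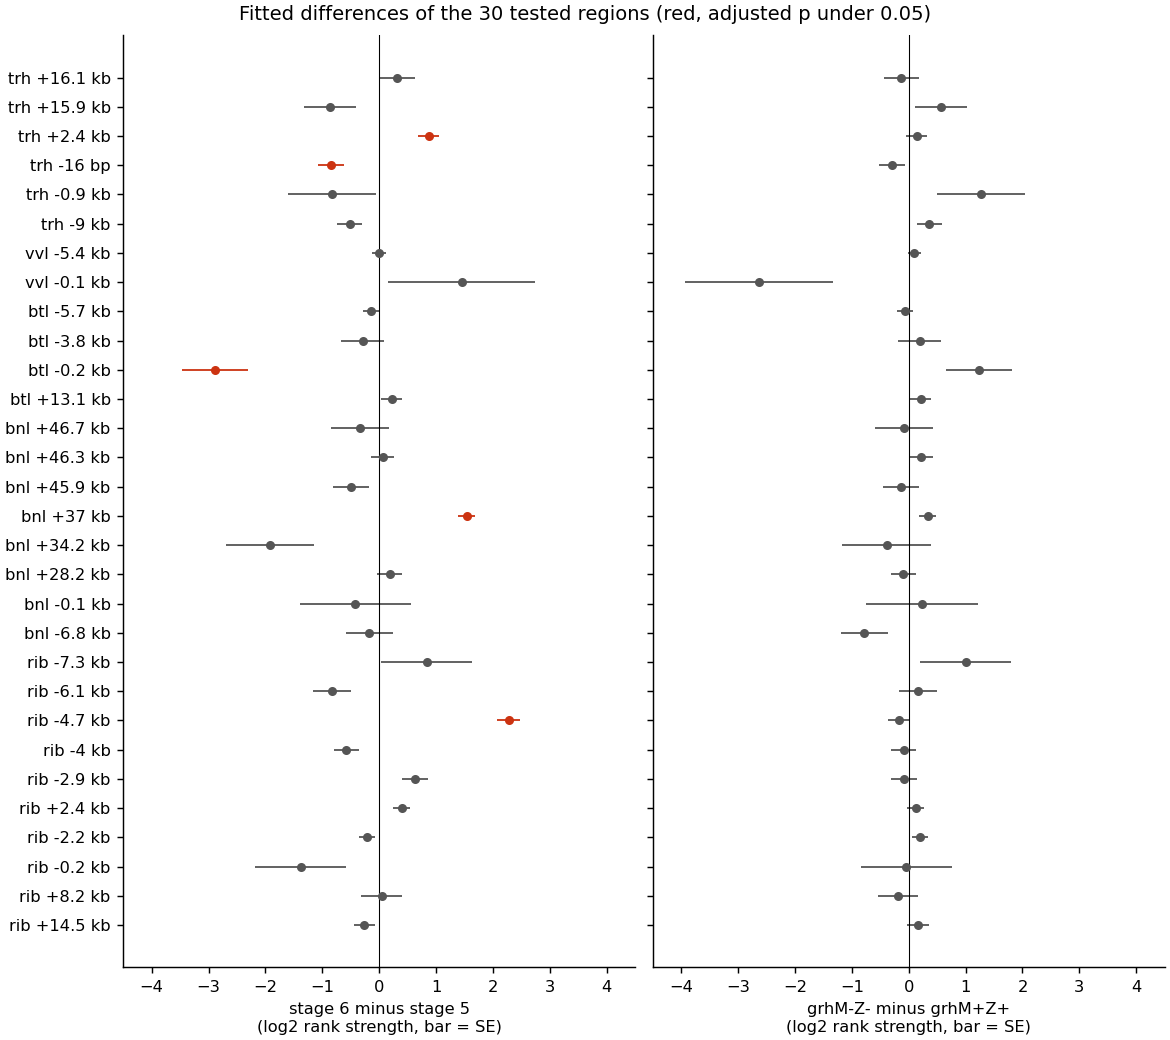
Fitted differences in rank strength (log2 scale, bars are SE) of the 30 tested regions, stage 6 minus stage 5 on the left and grhM-Z- minus grhM+Z+ on the right. Red points passed an adjusted p of 0.05; there are 5 for stage, of which the 3 positive ones passed the filter through stage 6 embryos alone, and 0 for genotype, where the widest bar is that of vvl -0.1 kb.

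Peaks of the conditions were then paired: a peak among the strongest 5000 of one list had a counterpart when it overlapped one of the strongest 15000 of the other. The 5 genes had 9 to 12 peaks among the strongest 5000 of a list. Between early mutant and control lists 1 of them lacked a counterpart. It was a peak at chr3R:19843503-19843685, upstream of *bnl*, which ranked 4732 in grhM- at stage 5 and had none in grhM+. Of all such peaks 1.6% had none (1.24% of grhM+ peaks had none in grhM-). The region, bnl -6.8 kb, did hold a summit in grhM+ at stage 5, at rank 20001, past the limit of 15000. The other early comparisons gave 0 member peaks in either direction. Over all peaks the shares there were 0.14% in grhM- and 0.06% in grhM+ at stage 6, 0% in grhB37/B37 and 0% in grhB37/+ at stage 6, 0.36% in grhM-Z- and 0.14% in grhM+Z+ at stage 5, and 0.06% in grhM-Z- and 0.14% in grhM+Z+ at stage 6.

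Between the stages, the peaks without a counterpart were again those of *rib* and *bnl*. In grhM- the *bnl* intron peak of stage 6 (chr3R:19799356-19800158, rank 2234) had none at stage 5, 1 of 11 member peaks (3.48% of all peaks). The upstream *bnl* peak of stage 5 named above had none at stage 6, again 1 of 11 (5.56% of all peaks). Its region held a summit in grhM- at stage 6, at rank 25880. In grhM+ 2 of 12 stage 6 peaks had none, at rib -4.7 kb and bnl +37 kb (10.3% of all), and 0 of 10 stage 5 peaks (10.6% of all). In grhM-Z- the same pair of regions gave 2 of 11 stage 6 peaks (4% of all) and 0 of 11 stage 5 peaks (4.36% of all). In grhM+Z+ 1 of 12 stage 6 peaks had none, at rib -4.7 kb (3.66% of all), and 0 of 9 stage 5 peaks (2.86% of all). The embryo lists behind these last counts also entered the fit, so they are not independent of it. With peaks ranked by fold, 0 stage 6 peaks of the 5 genes lacked a counterpart at stage 5, where 10% of all did, so these counts depend on the ranking by q-value.

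At 11-12 h, when the tracheal branches have formed and fuse, 24 of the 59 regions were in at least 1 of the late lists (40.7%, against 54.9% of all 37409 regions). Of the 59, 35 were listed early only (59.3%, against 45.1%) and 6 late only (10.2%, against 15.5%). Of the peaks of grhB37/B37 at 11-12 h, 3 of 11 had no counterpart at stage 6 (51.9% of all peaks), and of its stage 6 peaks 4 of 11 had none at 11-12 h (54.8% of all). In grhB37/+ it was 2 of 12 at 11-12 h (34.5% of all) and 5 of 12 at stage 6 (27.5% of all). With 11 or 12 peaks a list these counts are read as a description, since the shares of all peaks were large as well. There was 1 sample for each genotype, so none of these differences has a replicate check.

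The upstream *trh* promoter was the strongest site without an early counterpart in both genotypes. trh -0.3 kb lies 300 bp upstream of the start site of the longer *trh* transcript, in an exon of the noncoding RNA CR45378. It ranked 2111 in grhB37/B37, with 48 fragments over a background of 15.5, and 2245 in grhB37/+, with 61 fragments over 13.7. At stage 6 it ranked 33294 in grhB37/B37 and 34740 in grhB37/+, at a fold of 3.29 and 3.09, and at stage 5 it was listed in 1 of 8 lists, at rank 26756. In *rib*, an intronic region 1816 bp downstream of the upstream start site ranked 2251 in grhB37/B37 and 2832 in grhB37/+ at 11-12 h, against 40734 in grhB37/B37 and 44904 in grhB37/+ at stage 6. Its late peak lacked a counterpart at stage 6 in grhB37/B37 but not in grhB37/+. vvl +7.1 kb, downstream of the gene, ranked 6463 in grhB37/B37 and 5311 in grhB37/+ at 11-12 h against 39208 in grhB37/B37 and 46746 in grhB37/+ at stage 6.

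Several regions that were strong at stage 6 were absent from the late lists. btl -0.2 kb, bnl +37 kb, rib -4.7 kb and rib -7.3 kb were all within the strongest 5000 at stage 6 in grhB37/B37 and in grhB37/+, and none of them had a summit in either 11-12 h list. rib -7.3 kb had ranked 2729 in grhB37/B37 and 1064 in grhB37/+ at stage 6. At 11-12 h the *btl* window held 0 summits in grhB37/B37 and 4 in grhB37/+. The whole lists differ in length as well, with 12001 summits in grhB37/B37 and 24857 in grhB37/+, so these counts are a description.

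Late mutant and control lists differed in which regions were listed, and the list of grhB37/B37 is the shorter one. Of the 59 regions 15 were listed in grhB37/B37 (25.4%, against 30.9% of all regions) and 23 in grhB37/+ (39%, against 47%) at 11-12 h. Of these 14 were in both (23.7%, against 23.1%), 1 in grhB37/B37 only (1.69%, against 7.86%) and 9 in grhB37/+ only (15.3%, against 24%). Member summits were 0.133% of the grhB37/B37 list and 0.121% of the grhB37/+ list. Among the strongest 5000 peaks 0 of 11 of grhB37/B37 lacked a counterpart in grhB37/+ (10.5% of all peaks), and 1 of 12 of grhB37/+ lacked one in grhB37/B37 (18.4% of all peaks). The strong start-site regions of *trh*, *vvl*, *bnl* and *rib* were present in both genotypes. trh -0.9 kb and bnl -0.1 kb were weaker by rank in grhB37/B37 than in grhB37/+, and vvl -0.1 kb and rib -0.2 kb were stronger by rank. A rank is relative to the other summits of its own list. At vvl -0.1 kb fold and fragments went the other way, 5.85 and 97 in grhB37/B37 against 6.56 and 105 in grhB37/+.

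Start sites of 20 other tracheal genes were read in the same way, by their strongest region within 1 kb of a start site. Of these 18 could be tested between the stages, and 2 were higher and 3 lower at stage 6, with a median difference of -0.18. Of all 16834 regions tested, at start sites or not, 10.9% were higher and 8.1% lower. With 18 genes these counts are read as a description. The 2 higher ones were *dysf*, which encodes the bHLH-PAS factor Dysfusion of the cells that fuse branches (3.34, limma adjusted p = 0.000305), and *kni*, a nuclear receptor gene first known for body segmentation (2.33, limma adjusted p = 0.00774). *dysf* ranked 1566, 1388 and 861 in grhM-Z- and 445 and 1188 in grhM+Z+ embryos at stage 6, against 14225, 14228 and 9607 in grhM-Z- and 6269, 14612 and 4273 in grhM+Z+ embryos at stage 5. The 3 lower ones were the zinc finger gene *esg*, whose product marks fusion cells (-3.13, limma adjusted p = 0.00123), *Gasp*, which encodes a chitin-binding protein of the tube lining (-1.71, limma adjusted p = 0.0161), and *salm*, a regulator of the dorsal trunk (-1.51, limma adjusted p = 0.0339). *tgo*, the partner of *trh*, differed by -0.03 (limma adjusted p = 0.973). *stumps* and *sty*, which act inside the cell downstream of Btl as adaptor and as inhibitor, differed by -0.06 (limma adjusted p = 0.92) and -0.15 (limma adjusted p = 0.689).

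At 11-12 h, 16 of these 20 genes were listed in grhB37/B37 and 18 in grhB37/+. *aop*, *stumps* and *sty* were listed in grhB37/+ only, at ranks of 13625, 4549 and 7114, and *shg*, which encodes E-cadherin, in grhB37/B37 only, at rank 4547. *aop* (2L) and *shg* (2R) lie on the same chromosome as *grh*, so there the genotypes also differ in the chromosome that was selected. Of all 16119 regions within 1 kb of a start site, 30.3% were listed in grhB37/B37 and 59.6% in grhB37/+. In the grhB37/B37 list only were 3.54%, and in the longer grhB37/+ list only 32.8%. These shares cover every such region, while each of the 20 genes was read by its strongest region, so the counts and the shares are not of like sets. The chitin deacetylase genes *serp* and *verm* could not be tested early, since they were within the strongest 15000 of too few embryos. At 11-12 h *serp* ranked 9951 in grhB37/B37 and 5809 in grhB37/+, and *verm* 7093 in grhB37/B37 and 2752 in grhB37/+.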

How the data were processed

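Peak lists were used as deposited. Per the labels and the methods of the study, the authors used Trimmomatic 0.36 for trimming, Bowtie 2 for alignment to dm6 and MACS2, with a q-value limit of 0.05, for peaks, and kept only short fragments in the early samples. The deposited lists give per summit a score, a fold enrichment (a ratio over local background), and −log10 p and −log10 q. Fragments and background were solved from fold and p, within 0.05 of a whole number for at least 99.97% of summits in each list. Start sites came from Ensembl BDGP6.54, sequences from the dm6 assembly of the reference, and no peak ended beyond its chromosome there.

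Regions reach 250 bp to either side of the strongest summits of any list. Rank strength was fitted on stage and genotype with limma 3.58.1 in R 4.3.3 (Python 3.11.15 otherwise), with Benjamini-Hochberg adjustment over 16834 regions, and was tested on simulated data. Embryos were told apart by the prefix of their peak names, which gives the group but no replicate number. The regions named are, for each gene, the strongest at each stage, those within 1 kb of a start site, those past the threshold and the peaks without a counterpart apart from one not reported here, with others named after their values were seen. The 5 genes, the 20 further genes and the tests were chosen with earlier results of these data known.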

Additional observations from a re-analysis of the deposited data

How the results depend on the processing

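No paired analysis was possible because the peak names of the embryos give no replicate number, so the fit with a replicate block was not run. The stage difference at btl -0.2 kb kept its direction and threshold under all 17 alternatives, and that at trh -16 bp under 10 of 17. At rib -4.7 kb, bnl +37 kb and trh +2.4 kb the filter fixed the direction, so their alternatives say nothing of stability. The number of regions higher at stage 6 was 3, then 10 with a limit of 30000 summits (11.8% of all regions), 2 with a limit of 10000 (9.23%) or ranked by fold (11.4%), and 3 to 4 with 1 embryo left out. The number lower was 2, then 7 with a limit of 30000 (8.51%), 1 with a limit of 10000 (6.5%), 3 ranked by fold (8.36%), and 1 to 3 with 1 embryo left out. Member peaks without a counterpart between mutant and control lists numbered 2 (2.72% of all peaks), then 0 among the strongest 2000 (0.721%), 12 among the strongest 10000 (8.14%), 1 against any peak (2.31%), 4 with an overlap of 50% (8.69%) and 3 by fold (4.92%). At stage 6 without one at stage 5 there were 6 (5.36%), then 0 (1.88%), 18 (16.6%), 4 (1.94%), 7 (21.2%) and 0 (10%) in the same order. At stage 5 without one at stage 6 there was 1 (5.84%), then 0 (3.58%), 13 (14.5%), 0 (1.57%), 2 (9.95%) and 4 (12.2%). At 11-12 h without one at stage 6 there were 5 (43.2%), then 1 (35.9%), 14 (54.5%), 0 (25.4%), 6 (55.6%) and 10 (49.9%). At stage 6 without one at 11-12 h there were 9 (41.2%), then 3 (31.7%), 24 (53.1%), 9 (39.4%), 12 (47.5%) and 5 (56.8%). The gene bodies alone held 702 of the 1449 summits. The causes were not tested. The shallow embryo lists and the single samples at 11-12 h limit every comparison of weak regions.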
